A study of Mus musculus with 10 samples.

Results

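Gde1, Thrap3, Ppm1h and Usp34 were followed across hearts of mice that lack protein kinase C zeta (PKCz) and hearts of their wild-type littermates. The 4 genes were chosen by their difference between PKCz −/− and wild-type hearts on these same arrays: each has a probe set that was lower in PKCz −/− hearts past the threshold of an earlier fit. Their genotype differences are therefore given as a description with no test. Every probe set annotated with 1 of these symbols alone was kept, which gave 4 of 18193 named genes and 9 of the 45037 probe sets analysed: 1 for Gde1, 3 for Thrap3, 2 for Ppm1h and 3 for Usp34. A probe set is a group of short probes against 1 stretch of transcript, and its value here is a log2 expression value made with RMA, a method that corrects background, equalises the arrays and summarises the probes.

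All animals were male SV129 mice 32 weeks of age. The groups were PKCz −/− mice given angiotensin II (KO AngII, 2 arrays), wild-type mice given angiotensin II (WT AngII, 3 arrays), PKCz −/− mice given PBS (KO PBS, 3 arrays) and wild-type mice given PBS (WT PBS, 2 arrays). Angiotensin II (AngII), a hormone that raises blood pressure and drives growth of the heart, was infused for 14 days at 432 µg per kg per day by osmotic minipump, and PBS is its solvent; the source label of the PBS animals calls them untreated. The labels name no promoter, Cre or tissue restriction for the PKCz −/− allele and do not say whether each array came from an animal of its own, so errors and p-values measure the spread between these arrays, which may be technical. Arrays are named below by group and title number.

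The products of the 4 genes work in different parts of the cell. Gde1 is a membrane glycerophosphodiester phosphodiesterase that cleaves glycerophosphoinositol and, in mouse brain, releases N-acylethanolamines from their glycerophospho precursors. Thrap3 is an arginine- and serine-rich nuclear protein that takes part in pre-mRNA splicing and in transcriptional coactivation. Ppm1h is a metal-dependent serine/threonine phosphatase of the PP2C family that, in human cells, removes the phosphate that the kinase LRRK2 places on Rab GTPases. Usp34 is a large ubiquitin-specific protease that, in human cells, removes ubiquitin from axin, a scaffold of the complex that degrades beta-catenin in the Wnt pathway.

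The genes lie apart in the genome: Gde1 on chromosome 7, Thrap3 on chromosome 4, Ppm1h on chromosome 10 and Usp34 on chromosome 11. Their promoters are printed to show what sequence stands at each start. That the leading probe sets were low on the same arrays follows from how the genes were chosen. Each is the RefSeq sequence of the GRCm38.p6 assembly, 300 bases that span 250 bases before to 50 after the start of the gene, read 5′ to 3′ on the gene's strand, and capitals mark motif matches. The windows are chr7:118705689-118705988 (minus strand) for Gde1, chr4:126202661-126202960 (minus strand) for Thrap3, chr10:122678512-122678811 (plus strand) for Ppm1h and chr11:23306645-23306944 (plus strand) for Usp34.
Gde1: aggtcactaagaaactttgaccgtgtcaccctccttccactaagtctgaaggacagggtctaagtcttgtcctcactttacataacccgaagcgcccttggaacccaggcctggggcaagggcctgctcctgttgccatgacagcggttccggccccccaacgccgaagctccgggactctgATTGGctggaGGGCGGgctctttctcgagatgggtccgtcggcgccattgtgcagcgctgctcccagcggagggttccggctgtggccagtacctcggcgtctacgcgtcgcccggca
Thrap3: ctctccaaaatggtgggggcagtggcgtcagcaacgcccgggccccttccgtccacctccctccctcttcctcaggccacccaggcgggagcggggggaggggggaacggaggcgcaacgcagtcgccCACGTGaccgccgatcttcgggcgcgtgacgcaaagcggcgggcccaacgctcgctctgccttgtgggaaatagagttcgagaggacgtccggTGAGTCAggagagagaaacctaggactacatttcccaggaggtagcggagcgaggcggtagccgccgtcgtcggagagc
Ppm1h: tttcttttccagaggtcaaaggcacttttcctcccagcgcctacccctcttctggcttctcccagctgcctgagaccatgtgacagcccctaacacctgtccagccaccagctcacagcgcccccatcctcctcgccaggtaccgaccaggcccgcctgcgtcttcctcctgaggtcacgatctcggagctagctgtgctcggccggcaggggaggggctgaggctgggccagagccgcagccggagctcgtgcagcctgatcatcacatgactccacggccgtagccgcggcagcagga
Usp34: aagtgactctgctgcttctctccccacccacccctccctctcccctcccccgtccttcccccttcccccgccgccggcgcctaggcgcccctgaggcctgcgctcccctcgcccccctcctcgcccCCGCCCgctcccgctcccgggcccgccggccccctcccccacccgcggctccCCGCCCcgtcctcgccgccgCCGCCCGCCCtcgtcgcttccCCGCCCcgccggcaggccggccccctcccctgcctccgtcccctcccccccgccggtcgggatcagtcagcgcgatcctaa
The motifs searched on both strands, with overlapping matches counted, were the GC box (GGGCGG), the CCAAT box (CCAAT), the cAMP response element (TGACGTCA), the AP-1 element (TGANTCA), the palindromic E-box (CACGTG), the MEF2 element and the CArG box. The Gde1 promoter held 1 GC box and 1 CCAAT box. The Thrap3 promoter held 1 AP-1 element and 1 palindromic E-box. The Usp34 promoter held 5 GC boxes, and the Ppm1h promoter held no match to any of the 7 motifs. No motif occurred in more than 2 of the 4 promoters. Among 32851 mouse promoters of the same length, 35.7% held a GC box, 37.4% a CCAAT box, 7.81% an AP-1 element, 7.15% a palindromic E-box, 3.19% a MEF2 element, 1.79% a cAMP response element and 1.63% a CArG box. All 4 promoters were rich in G and C, at 62.3% for Gde1, 67.0% for Thrap3, 64.7% for Ppm1h and 80.3% for Usp34, against a median of 52.7% over all promoters. They held 22, 31, 17 and 36 CpG dinucleotides in the same order, against a median of 7.

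Some properties of the arrays bear on the results. Array medians lay between 6.13 and 6.24, and pairs of arrays correlated at r = 0.973 to 0.995 over all probe sets. The 24 probe sets for the polyadenylated spike-in controls were low on KO AngII 3, KO AngII 4 and KO PBS 4 (means of 6.90 to 7.08) and high on the other 7 arrays (12.9 to 13.3), so both KO AngII arrays and no WT array fall in the low batch. Values with this batch as a block are given beside the main results. Under AngII batch and genotype cannot be told apart from these arrays alone. The blocked fit takes the batch effect from KO PBS 4 against KO PBS 2 and 3, the only group with both batches. Blocked values that involve KO thus rest on that 1 low-spike array. Their errors are wider for the averaged genotype differences, with an SE of 0.19 against 0.12 for Gde1. WT AngII 2 stood apart, with a mean of 12.46 for 6 fibroblast markers against 10.27 on the lowest WT AngII array and 9.82 on the lowest of all. The 3′ minus 5′ difference of the beta-actin control probe sets, a sign of RNA quality that grows with degradation, was 0.83 and 0.74 on the KO AngII arrays, 0.92 to 1.33 on the WT AngII arrays, 0.75 to 1.38 on the KO PBS arrays and 1.17 and 1.70 on the WT PBS arrays. On the 3 low-spike arrays it was 0.74 to 0.83, the lowest of the 10. The 8 cardiomyocyte markers averaged 14.02 to 14.18 on every array, so the defining markers of the labelled tissue were present throughout. The targeted gene Prkcz was at 5.70 to 5.87 on the 5 KO arrays, against 6.23 to 6.45 on the 5 WT arrays, on probe set 1418085_at, a difference of −0.53 ± 0.09 (SE; limma, adjusted p = 0.126). Without WT AngII 2 it was −0.56 and passed the threshold (limma, adjusted p = 0.0468). With the spike-in batch as a block it was −0.60 ± 0.15 and did not pass. Its other probe sets differed by 0.10 ± 0.09 and −0.09 ± 0.08, and the place of the 3 probe sets in relation to the deletion is unknown here.

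All 4 genes had a probe set that was lower in every KO array than in every WT array. These leading probe sets differed between KO and WT, averaged over both treatments, by −1.14 ± 0.12 for Gde1 (2.20-fold), −1.19 ± 0.13 for Thrap3 (2.28-fold), −1.07 ± 0.12 for Ppm1h (2.10-fold) and −0.66 ± 0.09 for Usp34 (1.58-fold; SE, 5 KO and 5 WT arrays). Such complete separation was seen in 4 of the 9 probe sets, against 0.613% of all probe sets, and 4 of 9 were called lower at an adjusted p under 0.05, against 0.0333% of all. Both counts follow from how the genes were chosen, and nothing is read from them. The other 5 probe sets of Thrap3, Ppm1h and Usp34 overlapped between the genotypes, and their averaged differences were nearer 0. A leading probe set is the one with the smallest unadjusted p for this difference. Values nearer 0 in the others are thus partly built in, and probe sets of a gene were not tested against each other. In whole tissue, fewer cells of a type and less RNA per cell cannot be told apart.

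**Figure D1:**
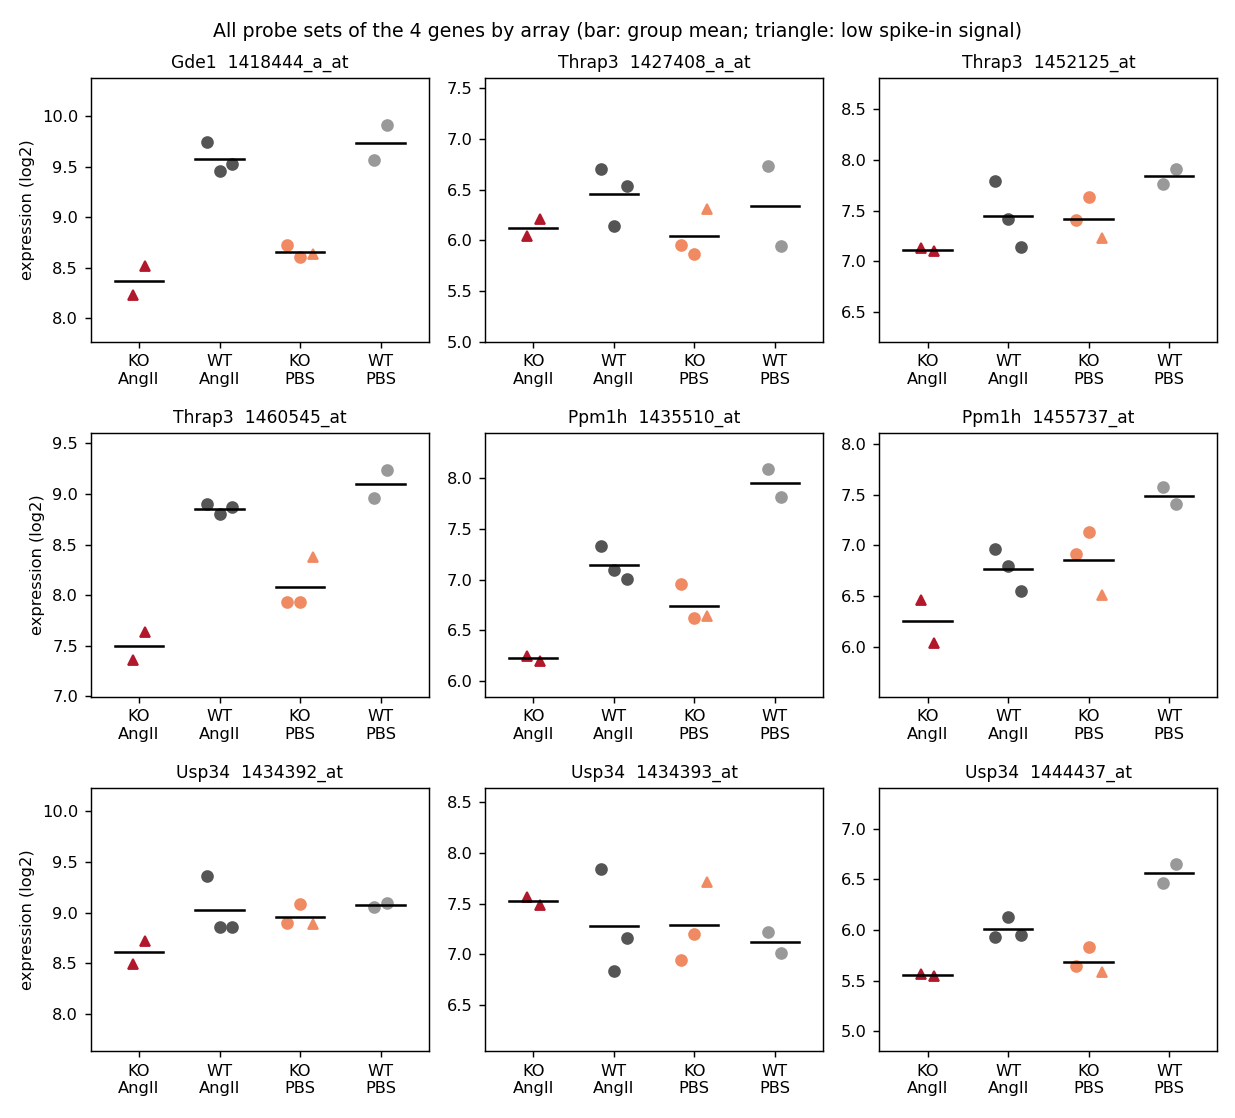
Log2 expression of the 9 probe sets on each of the 10 arrays, 1 panel per probe set, with groups from left to right KO AngII, WT AngII, KO PBS and WT PBS. Points are arrays, triangles are arrays with low spike-in signal, and short lines are group means; in Gde1 1418444_a_at, Thrap3 1460545_at, Ppm1h 1435510_at and Usp34 1444437_at every KO point lies below every WT point.

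Gde1 has a single probe set, 1418444_a_at, whose suffix marks a design that reads several transcripts of the gene. It was at 8.23 and 8.51 on the KO AngII arrays, against 9.74, 9.45 and 9.52 on the WT AngII arrays. On the KO PBS arrays it was at 8.73, 8.61 and 8.64, against 9.56 and 9.91 on the WT PBS arrays. The highest KO array, at 8.73, lay below the lowest WT array, at 9.45, under either treatment. The difference was −1.20 ± 0.16 under AngII and −1.08 ± 0.16 under PBS. It was −1.12 with the spike-in batch as a block and −1.10 without WT AngII 2. Within the high-spike arrays, KO PBS 2 and 3 against the WT PBS arrays, it was −1.07. No other probe set carries the symbol Gde1 alone, and probe sets with several symbols or none were not examined for a further measure of it.

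Thrap3 has 3 probe sets, and all 3 had a lower mean in KO. The leading one, 1460545_at, was at 7.36 and 7.63 on the KO AngII arrays, against 8.90, 8.80 and 8.87 on the WT AngII arrays. It was at 7.94, 7.94 and 8.38 on the KO PBS arrays, against 8.96 and 9.24 on the WT PBS arrays. The KO AngII arrays were the lowest of all, and the genotypes did not overlap. The difference was −1.36 ± 0.18 under AngII and −1.01 ± 0.18 under PBS. The average became −1.48 with the spike-in batch as a block, as the low-spike array KO PBS 4 was the highest of the KO PBS group.

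Probe set 1452125_at of Thrap3 was at 7.13 and 7.10 on the KO AngII arrays, against 7.79, 7.42 and 7.14 on the WT AngII arrays. It was at 7.40, 7.63 and 7.23 on the KO PBS arrays, against 7.77 and 7.91 on the WT PBS arrays. Within each treatment KO lay below WT, though only just under AngII, while the genotypes overlapped over both treatments. The averaged difference was −0.38 ± 0.14, and −0.18 with the spike-in block. Without WT AngII 2 it was −0.29 averaged and −0.17 under AngII.

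The third Thrap3 probe set, 1427408_a_at, was at 6.04 and 6.21 on the KO AngII arrays, against 6.70, 6.14 and 6.54 on the WT AngII arrays. On the KO PBS arrays it was at 5.95, 5.86 and 6.31, against 6.74 and 5.94 on the WT PBS arrays. The genotypes overlapped under both treatments, and the WT PBS arrays lay far apart from each other. The averaged difference was −0.32 ± 0.17, and −0.59 with the spike-in block. Under PBS it was −0.30 ± 0.24, and it became 0.10 without WT PBS 3 and −0.70 without WT PBS 5, so its sign there rests on a single array. Thus the 3 Thrap3 probe sets had the same sign, and the leading one differed by about the size seen for Gde1 while the others were nearer 0.

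Ppm1h has 2 probe sets, and both had a lower mean in KO under each treatment. The leading one, 1435510_at, was at 6.25 and 6.20 on the KO AngII arrays, against 7.33, 7.10 and 7.01 on the WT AngII arrays. It was at 6.95, 6.62 and 6.64 on the KO PBS arrays, against 8.09 and 7.81 on the WT PBS arrays. The genotypes did not overlap, though the highest KO array, at 6.95 under PBS, came close to the lowest WT array, at 7.01 under AngII. The difference was −0.92 ± 0.17 under AngII and −1.21 ± 0.17 under PBS, and the average was −0.97 with the spike-in block.

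The second Ppm1h probe set, 1455737_at, was at 6.46 and 6.04 on the KO AngII arrays, against 6.96, 6.79 and 6.55 on the WT AngII arrays. It was at 6.91, 7.13 and 6.51 on the KO PBS arrays, against 7.58 and 7.41 on the WT PBS arrays. KO lay below WT within each treatment, while KO PBS overlapped with WT AngII. The difference was −0.52 ± 0.21 under AngII and −0.64 ± 0.21 under PBS, with an average of −0.58 ± 0.15. Among the 9 probe sets of the 4 genes, this average lay nearest outside the threshold and the −0.66 ± 0.09 of Usp34 1444437_at nearest inside. Over the whole array, probe sets outside these 9 lay nearer on both sides, and this is a description only. With the spike-in block the average became −0.24 and the difference under AngII −0.01. Both Ppm1h probe sets thus had the same sign, and the second was the one that moved more with the batch.

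Usp34 has 3 probe sets, and these did not share a sign. The leading one, 1444437_at, was at 5.56 and 5.55 on the KO AngII arrays, against 5.94, 6.13 and 5.95 on the WT AngII arrays. It was at 5.65, 5.83 and 5.58 on the KO PBS arrays, against 6.47 and 6.66 on the WT PBS arrays. The WT PBS arrays stood above all others, the WT AngII arrays were intermediate and the KO arrays were lowest. This was the dimmest Usp34 probe set, with means of 5.63 in KO and 6.23 in WT, where array medians were 6.13 to 6.24. The difference was −0.45 ± 0.13 under AngII and −0.87 ± 0.13 under PBS, with averages of −0.56 with the spike-in block and −0.68 without WT AngII 2.

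Usp34 1434392_at was at 8.49 and 8.72 on the KO AngII arrays, against 9.36, 8.86 and 8.85 on the WT AngII arrays. It was at 8.89, 9.08 and 8.89 on the KO PBS arrays, against 9.05 and 9.09 on the WT PBS arrays. KO lay below WT under AngII and overlapped with WT under PBS. The averaged difference was −0.27 ± 0.13, with −0.20 in the blocked fit and −0.18 without WT AngII 2.

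Usp34 1434393_at was at 7.56 and 7.48 on the KO AngII arrays, against 7.84, 6.84 and 7.16 on the WT AngII arrays. It was at 6.94, 7.20 and 7.71 on the KO PBS arrays, against 7.22 and 7.01 on the WT PBS arrays. The genotypes overlapped under both treatments, and the WT AngII arrays spanned the widest range, with WT AngII 2 the highest of the 10 arrays. The averaged difference was 0.21 ± 0.20, the single positive value among the 9 probe sets, and it became −0.22 with the spike-in block and 0.35 without WT AngII 2. The other Usp34 probe sets had averaged differences nearer 0 than the leading one, which was picked by its smallest p. For 1434393_at the sign depended on the batch term.

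In the 4 leading probe sets the group means stood in the same order. KO AngII was lowest, then KO PBS, then WT AngII, and WT PBS was highest. That KO groups lay below WT groups follows from how the genes were chosen. The AngII and PBS order within each genotype comes from the same arrays, so the shared order is a description only. For Gde1 the means were 8.37 ± 0.20 in KO AngII and 9.57 ± 0.15 in WT AngII (SD, n = 2 and 3 arrays). They were 8.66 ± 0.06 in KO PBS and 9.74 ± 0.25 in WT PBS (n = 3 and 2 arrays). For Thrap3 1460545_at they were 7.50 ± 0.19, 8.86 ± 0.05, 8.08 ± 0.26 and 9.10 ± 0.20 in the same group order. In these 4 probe sets, groups next to each other in level overlapped only for Gde1, between WT AngII and WT PBS. For Ppm1h 1435510_at the means were 6.22 ± 0.04 in KO AngII, 7.14 ± 0.17 in WT AngII, 6.74 ± 0.19 in KO PBS and 7.95 ± 0.20 in WT PBS. For Usp34 1444437_at they were 5.55 ± 0.01, 6.01 ± 0.11, 5.69 ± 0.13 and 6.56 ± 0.13. With 2 or 3 arrays a group, these SDs are themselves poorly known. The beta-actin 3′ minus 5′ difference was likewise low on both KO AngII arrays and highest on a WT PBS array, and its part in these levels was not tested.

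Over the 9 probe sets, 8 had an averaged genotype difference below 0, against 42.4% of all probe sets, with a median of −0.58 against 0.03. Within treatment, every KO array lay below every WT array in 7 of 9 probe sets under AngII, against 11.2% of all probe sets, and in 6 of 9 under PBS, against 10.8%. These counts describe how the genes were chosen and share probe sets of 1 gene, so they are not separate evidence. Averaging the probe sets of a gene gave differences of −0.63 for Thrap3, −0.82 for Ppm1h and −0.24 for Usp34.

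**Figure D2:**
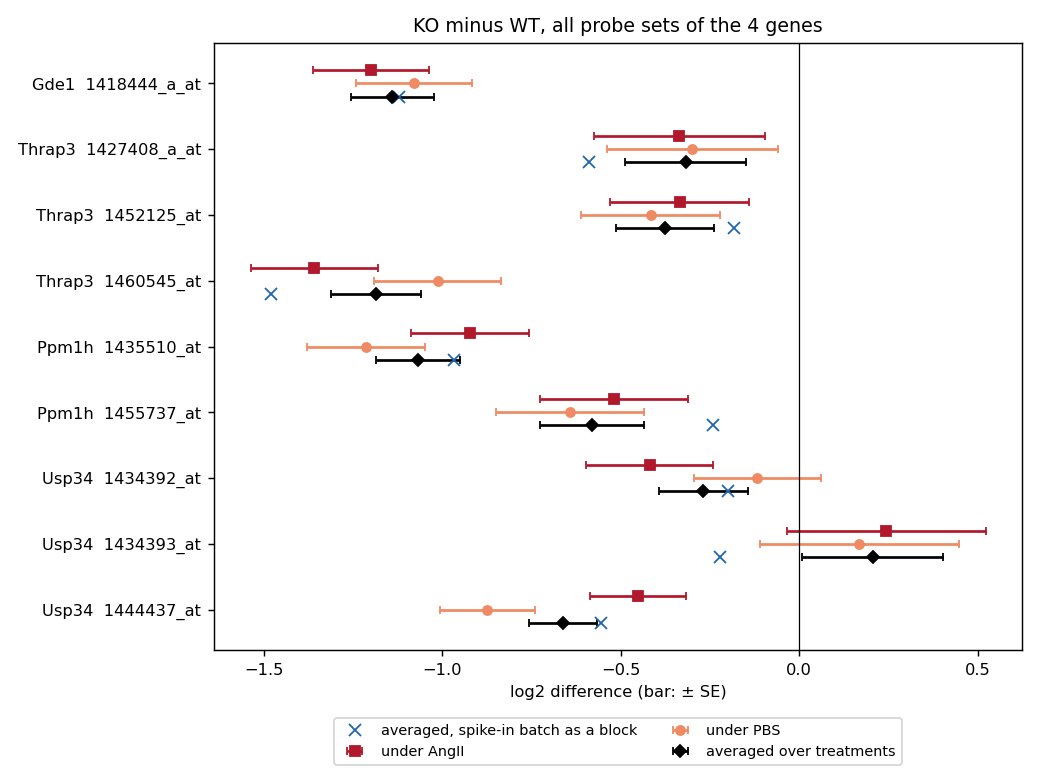
Log2 difference KO minus WT (horizontal axis) for the 9 probe sets, under AngII (squares), under PBS (circles) and averaged over treatments (diamonds), with bars of ± SE, and crosses for the average with the spike-in batch as a block. The averages of the leading probe sets lie between −1.19 and −0.66 without the block, and Usp34 1434393_at, at 0.21, moves to −0.22 with the block.

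The response to AngII was not used to choose the genes and was tested. None of the 9 probe sets was called in KO, in WT, averaged over genotypes or in the interaction, and 0% of all probe sets were called in any of these 4 comparisons by limma. At an unadjusted p under 0.05 the counts were 3 of 9 in KO, 3 of 9 in WT, 5 of 9 averaged and 1 of 9 in the interaction, against 4.57%, 5.23%, 9.62% and 1.64% of all probe sets. With the spike-in batch as a block they were 1, 3, 4 and 2 of 9, against 0.908%, 5.55%, 2.96% and 1.55%. Without WT AngII 2 they were 4, 4, 7 and 0 of 9, against 8.01%, 11.2%, 17.4% and 3.44%. The AngII comparisons use the same WT PBS and KO arrays as the genotype differences that chose the genes, so a high WT PBS array enters both.

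Averaged over genotypes, Ppm1h had the lowest AngII values of the 9 probe sets, and both of its probe sets gave the same averaged difference. Probe set 1435510_at differed between AngII and PBS by −0.52 ± 0.17 in KO and −0.81 ± 0.17 in WT, with an average of −0.66 (limma, unadjusted p = 1.197e-04, adjusted p = 0.483). Probe set 1455737_at differed by −0.60 ± 0.21 in KO and −0.72 ± 0.21 in WT, with an average of −0.66 (limma, adjusted p = 0.483). Within each genotype every AngII array lay below every PBS array in both. With the spike-in block the averages were −0.61 and −0.49 (adjusted p = 0.9996 for each), and in KO the differences were −0.42 and −0.26. With limma's array weights, which give less weight to arrays that vary more, the averages were −0.75 for each and passed the threshold (adjusted p = 0.0295 and 0.0411), as did 0.2% of all probe sets. In WT, array weights called 3 of the 9 probe sets, both of Ppm1h and Usp34 1444437_at, against 0.582% of all.

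Averaged over genotypes, Thrap3 and Usp34 had AngII values nearer 0 than Ppm1h, while in KO Thrap3 1460545_at was within the range of both Ppm1h probe sets. Thrap3 1460545_at differed by −0.59 ± 0.18 in KO and −0.24 ± 0.18 in WT, with an average of −0.41 (limma, adjusted p = 0.483). Thrap3 1452125_at had −0.31 in KO and −0.39 in WT, and 1427408_a_at had 0.08 and 0.12 in the same order. With the spike-in block the KO values of Thrap3 were −0.88 for 1460545_at, −0.12 for 1452125_at and −0.19 for 1427408_a_at. The WT value of 1427408_a_at was −0.28 without WT PBS 5 and 0.52 without WT PBS 3, so its sign rests on a single array. For 1452125_at the WT value ran from −0.56 without WT AngII 2 to −0.23 without WT AngII 4, and for 1460545_at from −0.38 without WT PBS 3 to −0.10 without WT PBS 5. Usp34 1444437_at differed by −0.13 ± 0.13 in KO and −0.55 ± 0.13 in WT. Its interaction of 0.42 ± 0.19 was the one below an unadjusted p of 0.05 (limma, unadjusted p = 0.0462, adjusted p = 1), and was 0.53 with the spike-in block. This interaction was 0.39 without WT AngII 2 (limma, unadjusted p = 0.0634) and 0.20 with the title number as a replicate block. The interaction of Thrap3 1460545_at was −0.35 ± 0.25, and −0.64 with the block. Usp34 1434392_at had −0.35 in KO and −0.05 in WT, the WT value running from −0.21 without WT AngII 2 to 0.04 without WT AngII 4. Usp34 1434393_at had 0.24 in KO and 0.16 in WT, and these became −0.19 in KO with the spike-in block and −0.12 in WT without WT AngII 2.

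Gde1 had AngII differences of −0.28 ± 0.16 in KO and −0.16 ± 0.16 in WT, with an average of −0.22 (limma, adjusted p = 0.549). In KO the AngII arrays lay below the PBS arrays, and in WT they overlapped. The WT value was 0.01 without WT PBS 5 and −0.34 without WT PBS 3, and the KO value ran from −0.42 without KO AngII 4 to −0.14 without KO AngII 3. Markers of other cell types differed with AngII too, for AngII minus PBS averaged over genotypes. Above 0 were 5 of 6 fibroblast markers (median 1.05), 5 of 6 macrophage markers (0.36) and 5 of 6 smooth muscle and pericyte markers (0.11). The mean level of each of these lists was highest on WT AngII 2. Below 0 were 5 of 6 endothelial markers (−0.14), 3 of 3 erythroid markers (−0.19), 3 of 3 adipocyte markers (−0.01) and 2 of 5 skeletal muscle markers (median 0.01). None of them was called, and their part in the AngII values of the 4 genes was not tested. Over all 9 probe sets the AngII arrays lay below the PBS arrays in 7 of 9 in KO, against 10.8% of all probe sets, and in 4 of 9 in WT, against 11.3%. In KO this contrast runs along the spike-in batch, as both AngII arrays are in the low batch and 2 of the 3 PBS arrays in the high batch; its part in the KO values beyond the blocked fit was not tested.

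**Figure D3:**
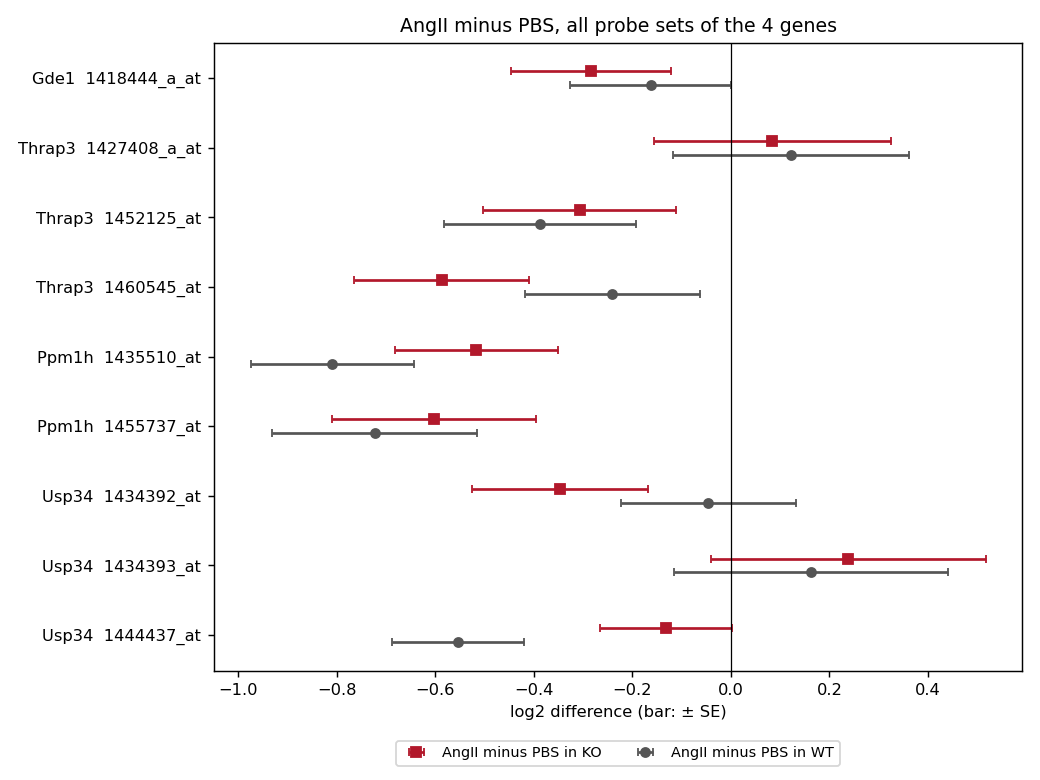
Log2 difference AngII minus PBS (horizontal axis) for the 9 probe sets, in KO (red squares) and in WT (grey circles), with bars of ± SE. Both Ppm1h probe sets lie between −0.81 and −0.52, and Usp34 1444437_at is at −0.13 in KO and −0.55 in WT.

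The probe sets most like each leading probe set were found by the root mean square (RMS) difference of values centred on each probe set's own mean over the 10 arrays, among probe sets of other genes with 1 symbol. Gde1 and Thrap3 were each other's nearest match, at an RMS of 0.173 log2 units. The SD was 0.573 for the Gde1 profile and 0.612 for the Thrap3 profile. Both probe sets were chosen on their KO minus WT difference, which is part of each profile, so nothing is read from this likeness. After Thrap3, Gde1 was most like Ntn4, a netrin of basement membranes (0.206), and Cnn3, an actin-binding calponin (0.246). After Gde1, Thrap3 was most like Sirt1, an NAD-dependent deacetylase (0.244), and B3galnt2, a glycosyltransferase that acts on dystroglycan (0.290).

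Ppm1h was most like Klf6, a zinc-finger transcription factor (0.237), Tasor2 (0.256) and Rnf115, a ubiquitin ligase (0.260), against an SD of 0.588. The Klf6 probe set was at 8.17 to 8.92 on the KO arrays, just below the 8.92 to 9.98 on the WT arrays. Usp34 was most like Trim23 (0.124), Ppm1a, another PP2C phosphatase (0.135), and Ehbp1, an adaptor that binds Rab8 family GTPases (0.144), against an SD of 0.367. Ehbp1 lies on chromosome 11 like Usp34, with 6 measured genes between them. The likeness is over all 10 arrays, batch included, and is a description. For every leading probe set it includes the genotype difference used to choose it.

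The measured genes beside each of the 4 genes were examined too, since Thrap3 lies on the same chromosome as Prkcz. Between Thrap3 and Prkcz lie 388 measured genes, and none of the 10 nearest measured genes of Thrap3 had an unadjusted p under 0.05 for KO against WT. Their differences lay between −0.40 (Col8a2) and 0.18 (Sh3d21). Around Gde1, 4 of 10 neighbours had an unadjusted p under 0.05, against 12.4% of all probe sets, and 0 were called, against 0.0444%. Those neighbours went both ways: Itpripl2 at −0.70, Knop1 at −0.50, Coq7, an enzyme of ubiquinone synthesis, at 0.53 and Tmc7 at 0.59. With the spike-in block they were at −0.41, −0.36, 0.62 and 0.64 in the same order. Around Ppm1h the differences lay between −0.31 (Rxylt1) and 0.10, with 1 of 10 under an unadjusted p of 0.05. Around Usp34 they lay between −0.47 (0610010F05Rik) and 0.21 (Fam161a), with 2 of 10, B3gnt2 being the other at −0.38. Each neighbour was taken by its probe set of highest mean level, so the shares of all probe sets are not a matched background. The 4 genes were chosen for their size and the neighbours were not, so the sizes of the genes and of their neighbours are not compared.

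**Figure D4:**
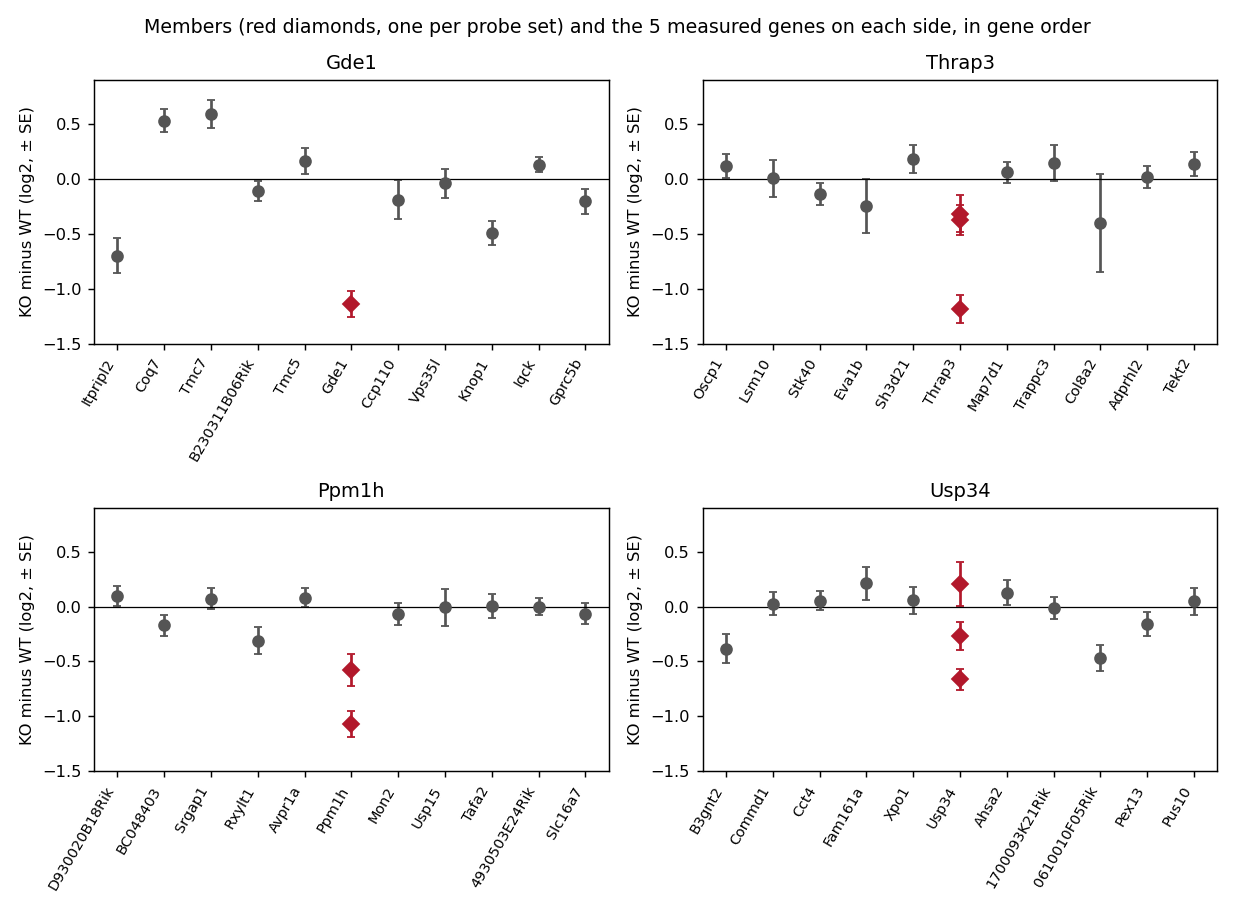
Log2 difference KO minus WT (vertical axis, bars ± SE) of every probe set of each gene (red diamonds) and of the 5 measured genes on either side of it in RefSeq gene order (grey circles, spaced by order and not by distance), 1 panel per gene. Neighbours lie between −0.70 and 0.59, and the leading probe sets of Gde1, Thrap3, Ppm1h and Usp34 lie at −1.14, −1.19, −1.07 and −0.66.

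Other genes of the pathways were examined from 6 lists, taking for each gene the probe set of highest mean level. No gene of any list was called in either direction, in KO against WT or in AngII against PBS, both averaged. Of 42 ubiquitin-specific proteases, 37 had a genotype difference below 0, with a median of −0.15 against 0.00 over all genes, and 10 had an unadjusted p under 0.05 (9 lower, 1 higher), among them Usp16, which acts on histone H2A (−0.48), Usp38 (−0.41) and Usp24 (−0.40). With the spike-in block 25 of the 42 were below 0, with a median of −0.05, and Usp16 was at −0.35, Usp38 at −0.23 and Usp24 at −0.19. For AngII minus PBS averaged over genotypes, 36 of the 42 were below 0, with a median of −0.14, and 9 had an unadjusted p under 0.05, Usp53 at −0.48 and Usp24 at −0.46 among them.

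Of 25 splicing, exon junction and mRNA export genes measured among 30 listed, 19 had a genotype difference below 0 and 5 had an unadjusted p under 0.05, all lower. These included Srrm2 (−0.56), a scaffold of nuclear speckles, Srsf3 (−0.39), Srrm1 (−0.34) and Ddx5 (−0.31), and with the block these were at −0.05, −0.16, −0.25 and −0.57 in the same order, with 13 of 25 below 0. For AngII minus PBS, 6 were under an unadjusted p of 0.05, all lower, with Rnps1 at −0.28 and Srrm1 at −0.29. Of the 18 PP2C phosphatases, 13 were below 0 for genotype, with Ppm1e at −0.45 and Ppm1g at −0.27 under an unadjusted p of 0.05. With the block 10 of the 18 were below 0, Ppm1e was at −0.28 and Ppm1g at −0.01. For AngII minus PBS, 5 of the 18 were under an unadjusted p of 0.05, all lower, with Ppm1l at −0.42 and Ppm1k at −0.41.

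Of 13 genes of LRRK2 and its Rab GTPases, Rab8b (−0.57) and Rab3a (0.28) had an unadjusted p under 0.05 for genotype, and no gene did for AngII. With the block Rab8b was at −0.22 and Rab3a at 0.09. Of 13 glycerophosphodiesterase and N-acylethanolamine genes measured among 14 listed, 3 had an unadjusted p under 0.05 for genotype: Napepld, the phospholipase that makes N-acylethanolamines, at −0.66, Gpcpd1 at 0.63 and Faah, which degrades N-acylethanolamines, at 0.44. With the spike-in block Napepld was at −0.18, Gpcpd1 at 0.18 and Faah at 0.28. Of 19 Wnt genes measured among 20 listed, 5 had an unadjusted p under 0.05, 4 of them lower: Gsk3b, the kinase of the destruction complex, at −0.55, Ccnd1, a Wnt target, at −0.45 and Znrf3 at −0.41 among them. With the block Gsk3b was at 0.06, Ccnd1 at −0.14 and Znrf3 at −0.38. Over all probe sets, 12.4% had an unadjusted p under 0.05 for genotype and 9.62% for AngII, and 42.4% and 45.7% were below 0. Each list gene was taken by its probe set of highest mean level, so these shares are not a matched background for the lists.

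Markers of other cell types were compared between the genotypes too. The 6 macrophage markers were all below 0 in KO against WT (median −0.37), with mean levels of 8.42 to 8.57 in KO AngII, 8.53 to 9.54 in WT AngII, 8.18 to 8.35 in KO PBS and 8.43 to 8.77 in WT PBS. The 6 smooth muscle and pericyte markers were all below 0 (median −0.35), with mean levels of 9.76 to 9.90 in KO AngII, 9.80 to 10.74 in WT AngII, 9.38 to 9.76 in KO PBS and 9.77 to 10.16 in WT PBS. Fibroblast markers were below 0 in 4 of 6 and endothelial markers in 3 of 6, while 0 of 3 erythroid markers (median 0.21), 0 of 3 adipocyte markers (0.12) and 0 of 5 skeletal muscle markers (0.03) were below 0. No marker was called, and the part of these cell types in the members' values was not tested. Without WT AngII 2, which had the highest value of both lists, the leading probe sets differed between KO and WT by −1.10 for Gde1, −1.18 for Thrap3, −1.02 for Ppm1h and −0.68 for Usp34. In the macrophage and the smooth muscle and pericyte lists, the KO PBS arrays still lay below the WT PBS arrays. The values without WT AngII 2 thus do not decide the part of these cell types.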

How the data were processed

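RNA from mouse hearts was measured on 10 one-colour Affymetrix arrays in 4 groups, assigned from the labels. Per the submitters' processing notes, the authors made the deposited log2 values with RMA, whose version the sources do not name; they cover 45101 probe sets. RMA compresses small differences of dim probe sets. Arrays have no read depth; their number limits the precision. Without the 64 control probe sets, 45037 remained for the tests, of which 34945 carry 1 symbol in GEO's platform annotation, 932 several and 9160 none. Symbols were updated by Entrez identifier for 34741 with the RefSeq table of GRCm38.p6, which otherwise gave only gene order and promoters.

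Comparisons used limma 3.58.1 (R 4.3.3) with a linear model of 4 group means over all arrays (lmFit, eBayes with trend, 6 residual degrees of freedom, two-sided), with Benjamini-Hochberg adjustment over 45037 probe sets, and a call is an adjusted p under 0.05. The members and the lists were chosen with earlier results of these data known. A gene's leading probe set is the one with the smallest unadjusted p for KO against WT. Named genes are all probe sets of the 4 genes and of Prkcz, the genes with the smallest unadjusted p of each list, 5 measured neighbours on each side, and the 3 most alike genes. Alternatives covered normalization, a filter on dim probe sets, the variance model, array weights, batch and replicate blocks, fewer arrays and the mean over probe sets.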

Additional observations from a re-analysis of the deposited data

How the results depend on the processing

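The genotype differences of the leading probe sets kept their direction under every alternative run that held them. The genes were chosen on this difference, and in these probe sets every KO array lay below every WT array. Leaving out an array could thus not change the direction, and nothing is read from it. Leaving out each array in turn gave −1.23 to −1.05 for Gde1, −1.26 to −1.12 for Thrap3, −1.14 to −1.0 for Ppm1h and −0.71 to −0.62 for Usp34. The spike-in batch as a block gave −1.48 for Thrap3, and averaging all probe sets of each gene gave −0.63 for Thrap3, −0.82 for Ppm1h and −0.24 for Usp34, since their other probe sets differed less. Array weights gave 2 called probe sets in AngII against PBS averaged over genotypes (both of Ppm1h, −0.75 each) and 3 in WT (Ppm1h 1435510_at −0.93, Ppm1h 1455737_at −0.91 and Usp34 1444437_at −0.60), where equal weights gave 0; the cause was not tested. Title numbers gave little sign of pairing of the arrays, though groups of 2 or 3 arrays cannot exclude it. Same-numbered arrays gave r = −0.355 to 0.103, over 0.1 in 1 of 10 pairs, a measure other than the r of 0.973 to 0.995 between whole arrays. With the title number as a replicate block the leading probe sets differed by −1.09 for Gde1, −1.18 for Thrap3, −1.13 for Ppm1h and −0.58 for Usp34, and 0 members were called for AngII. Groups of 2 or 3 arrays and the spike-in batch limit every comparison.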
